A study of Mus musculus with 2 samples.

Results

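The genes encoded in mouse mitochondrial DNA were followed in 2 RNA-seq libraries of resident macrophages sorted from the kidney. They were the rows of the count table whose Ensembl identifier maps to a symbol beginning with mt-, and 37 of the 48795 rows naming a gene met this rule. The 37 genes were 13 mRNAs for respiratory-chain proteins, 2 ribosomal RNAs and 22 tRNAs. Library R2a came from CD11c+ and library R2b from CD11c- resident macrophages of kidneys of adult wild type C57BL/6 mice aged 8 weeks. The labels name no treatment, and the question of the comparison is how gene expression differs between these populations. RNA of 6 to 8 mice was pooled for sequencing, so each population is 1 library and nothing measures how animals vary, and p-values are left out for that reason. The intervals below are exact 95% intervals for the counting of reads alone, and with no molecular identifiers named in the labels, reads can be PCR copies of 1 molecule. In such bulk samples, fewer cells of a type and less RNA per cell cannot be told apart.

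Mitochondrial DNA is a small circle that is read from both strands as long transcripts, which are cut into mature RNAs, largely at the tRNAs that lie between the other genes. The mRNAs encode core subunits of respiratory complexes I, III, IV and V, while all other subunits, and the proteins that copy, transcribe, process and translate the mitochondrial genome, come from nuclear genes. Most mitochondrial genes are read in the heavy-strand direction, and mt-Nd6 is the only mRNA read in the light-strand direction. Pieces of mitochondrial DNA have also been inserted into the nuclear chromosomes over evolution, and some are annotated as pseudogenes. The annotation placed 28 of the 37 genes, 12 mRNAs among them, in the heavy-strand direction and 9 genes, mt-Nd6 and 8 tRNAs, in the light-strand direction.

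Nuclear copies of these genes were looked at because the counter keeps reads with more than 1 alignment in a row of their own, outside the gene counts. The part of the copies in the count of any gene was not tested. The sequences shown here came from the GENCODE M21 transcripts of build GRCm38 and are written 5′ to 3′ along the gene. The start of mt-Co2, a subunit of cytochrome c oxidase, at chrM:7013-7087 on the plus strand is set beside the same 75 bases, the length of 1 read, of the pseudogene Gm28661 at chr1:24615491-24615565 on the minus strand. The pair is shown because no base differs.
mt-Co2: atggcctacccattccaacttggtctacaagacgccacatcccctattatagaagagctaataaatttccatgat
Gm28661: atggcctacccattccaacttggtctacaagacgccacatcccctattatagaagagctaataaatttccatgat

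The start of mt-Nd3, a complex I subunit, at chrM:9459-9533 on the plus strand differs from Gm28438 at chr1:24613045-24613119 on the minus strand by T3C alone, counted from 1 at the first base of the gene. Capitals mark the base that differs, and no other base differs along the 345 aligned bases of this pair.
mt-Nd3: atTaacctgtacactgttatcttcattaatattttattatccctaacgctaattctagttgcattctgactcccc
Gm28438: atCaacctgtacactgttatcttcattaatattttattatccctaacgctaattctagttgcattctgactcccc

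The third pair is shown because it is more diverged. The stretch printed is the 75 bases of the pair that hold the most differences, so a read here differs between member and copy. At 220 start positions in mt-Co1, the 75 bases from that position occur in Gm13340 without a difference. Bases 460 to 534 of mt-Co1, the catalytic subunit of cytochrome c oxidase, lie at chrM:5787-5861 on the plus strand, and the matching stretch of Gm13340 lies at chr2:22589114-22589188 on the minus strand. Capitals mark the 5 differing bases, which are A462G, A468G, T501C, C519T and G534A, and the pair differs at 37 bases over the 1545 bases of the gene.
mt-Co1: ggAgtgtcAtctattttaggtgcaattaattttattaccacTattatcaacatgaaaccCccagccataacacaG
Gm13340: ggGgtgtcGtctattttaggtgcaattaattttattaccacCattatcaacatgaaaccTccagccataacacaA

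Reads on genes numbered 11811923 in R2a and 23915896 in R2b, so R2b was 2.02 times as deep. Itgax, which encodes CD11c, had 4451 reads (366.7 CPM, its reads relative to the scaled library total) in R2a and 1139 reads (48.9 CPM) in R2b. All 12 genes of a macrophage marker list exceeded 1 CPM, with a summed level of 10875 CPM in R2a and 15137 CPM in R2b. Each of the 12 had a lower CPM in R2a than in R2b. By the 2-fold rule given below, 1 of the 12 was called lower and 11 were not called, beside 1.84% of all genes tested called lower. The share of all genes with a lower CPM in R2a was not counted. Proximal tubule markers, from an epithelium rich in mitochondria, were also present, and all 14 listed genes were tested with summed levels of 3680 and 3765 CPM. Summed levels in R2a and R2b were 1010 and 1152 CPM for 9 distal nephron markers, 97.7 and 58.5 CPM for 5 podocyte markers and 48.4 and 37.1 CPM for 6 endothelial markers. Sums were 53.1 and 33.7 CPM for 5 dendritic cell markers, 28.3 and 34.6 CPM for 4 B cell markers, 15.1 and 26.3 CPM for 6 fibroblast and pericyte markers, 4.53 and 6.66 CPM for 5 erythroid markers and 1.98 and 3.27 CPM for 6 T and NK cell markers. The 6 neutrophil markers summed to under 1 CPM in both libraries, with Ly6g and Mpo at 0 reads. The part of RNA from other cells in the mitochondrial levels was not tested.

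The 37 genes took 2209362 reads in R2a and 4514215 reads in R2b, which were 18.7% and 18.9% of the reads on genes. Reads were found on 14 of the 37 genes in R2a and on 15 in R2b, and 13 genes exceeded 1 CPM in the higher library. Of these 13, 1 gene was called higher in R2a and 0 were called lower, where a call needs a log2 ratio of at least 1 in size and an interval of the fold that leaves out 1. Over all 15603 genes tested, 1.93% were called higher and 1.84% lower in R2a. The log2 ratios compare CPM plus 0.5 in R2a with CPM plus 0.5 in R2b after TMM scaling, and the folds are ratios of CPM without the added value. The levels of the well covered genes therefore lay close together in the 2 libraries, and mt-Nd6 was the exception.

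**Figure D1:**
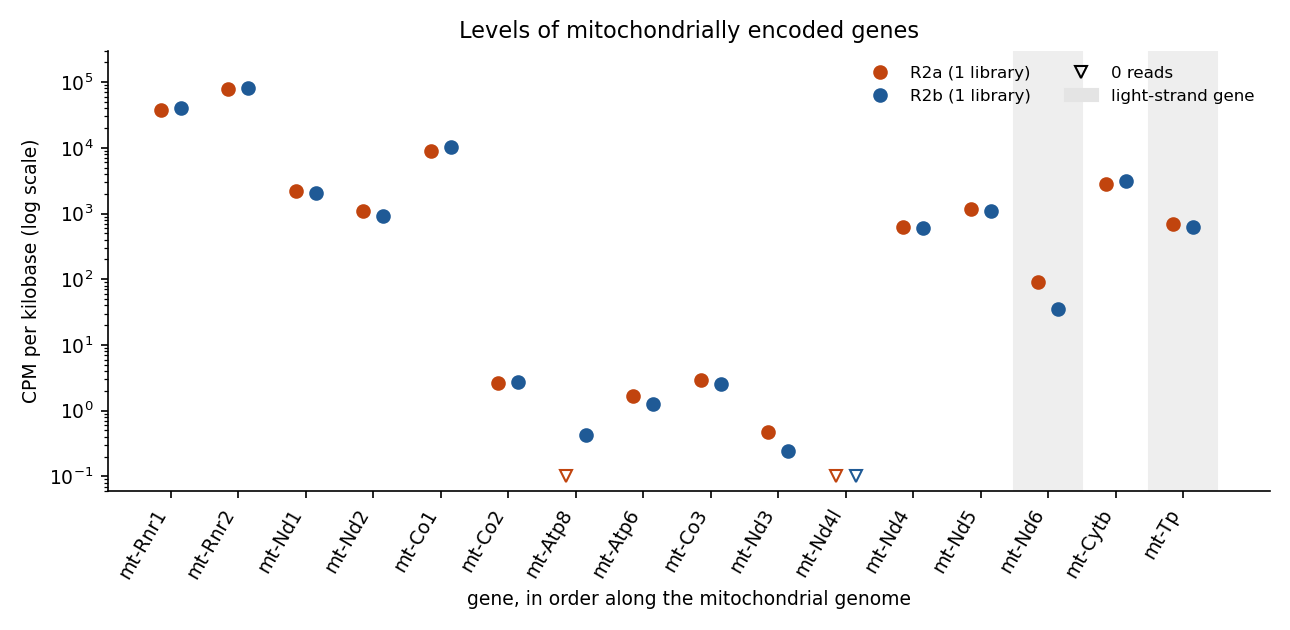
Level of each mitochondrially encoded gene with reads, and of mt-Nd4l, in CPM per kilobase of gene (log scale), in order along the mitochondrial genome, with 1 point for each library. Open triangles mark 0 reads and grey bands mark the 2 light-strand genes with reads. mt-Co2, mt-Atp8, mt-Atp6, mt-Co3, mt-Nd3 and mt-Nd4l lie below 3 CPM per kilobase in both libraries, whereas the 6 other heavy-strand mRNAs lie at 607 or above.

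The ribosomal RNAs of the mitochondrial ribosome were the most abundant members. mt-Rnr1, the small-subunit rRNA, had 430094 reads in R2a and 886352 in R2b, which were 35432 and 38086 CPM. mt-Rnr2, the large-subunit rRNA, had 1493212 reads in R2a and 3035207 in R2b, which were 123014 and 130422 CPM. Together they held 87.1% of the mitochondrial reads in R2a and 86.9% in R2b. Per kilobase, the level of mt-Rnr2 was 2.10 times that of mt-Rnr1 in R2a and 2.07 times in R2b. The log2 ratios of R2a over R2b were -0.10 for mt-Rnr1 and -0.08 for mt-Rnr2, and relative to the summed heavy-strand mRNAs they became 0.01 and 0.03. Library preparation included ribosomal RNA reduction, and the rRNA level in the cells and what the reduction left cannot be told apart.

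Among the mRNAs, mt-Co1 was the highest. It had 170195 reads in R2a and 374687 in R2b, or 9075 and 10421 CPM per kilobase, and made up 59.6% and 63.3% of the reads on the 13 mRNAs. Its level in R2a was 0.871 times that in R2b (95% interval 0.866 to 0.876), a log2 ratio of -0.20. mt-Cytb, cytochrome b and the only mitochondrial subunit of complex III, came next with 39088 and 82834 reads, or 2815 and 3111 CPM per kilobase. Its level in R2a was 0.905 times that in R2b (0.894 to 0.916). Both genes were thus slightly lower in R2a, by far less than the 2-fold rule.

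The well covered complex I mRNAs lay slightly to the other side. They encode membrane subunits of NADH dehydrogenase, the entry point of electrons from NADH. mt-Nd1 had 25757 reads in R2a and 45721 in R2b, or 2217 and 2053 CPM per kilobase, a fold of 1.08 (1.06 to 1.10). mt-Nd2 had 13599 and 21827 reads, or 1079 and 904 CPM per kilobase, a fold of 1.19 (1.17 to 1.22). mt-Nd5 had 25752 and 46625 reads, or 1163 and 1098 CPM per kilobase, a fold of 1.06 (1.04 to 1.08). These 3 genes were slightly higher in R2a and well within the 2-fold rule. mt-Nd4 had 10466 and 19461 reads, or 626 and 607 CPM per kilobase, with a fold of 1.03 (1.01 to 1.06). The signs of the log2 ratios of the 10 well covered members, which are the rRNAs, mt-Co1, mt-Cytb, these 4 mRNAs, mt-Nd6 and mt-Tp, were the same under all 4 other scalings.

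Summed by complex, the 6 heavy-strand complex I mRNAs reached 6226 CPM in R2a against 5742 CPM in R2b, a fold of 1.08 (1.07 to 1.09). The 3 complex IV mRNAs summed to 14025 and 16104 CPM, a fold of 0.871 (0.866 to 0.876) that is carried by mt-Co1. All 12 heavy-strand mRNAs summed to 23473 and 25407 CPM, a fold of 0.924 and a log2 ratio of -0.11. Complex I and complex IV mRNAs of the same strand thus stood on opposite sides of 1, both within the 2-fold rule, and no replicate shows whether such a gap exceeds the spread between pools of animals. mt-Co1 was 14.5 times as high as mt-Nd4 per kilobase in R2a and 17.2 times in R2b.

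The order of the mRNA levels per kilobase was the same in both libraries for the 7 highest, mt-Co1, mt-Cytb, mt-Nd1, mt-Nd5, mt-Nd2, mt-Nd4 and mt-Nd6. Below them, mt-Co3 and mt-Co2 changed places between the libraries, at 2.94 and 2.65 CPM per kilobase in R2a and 2.52 and 2.70 in R2b, on 22 to 46 reads each. mt-Nd3 and mt-Atp8 also changed places, on 0 to 2 reads each. The counting intervals of both pairs overlap.

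mt-Nd6, a complex I subunit at chrM:13552-14070 on the minus strand, was the 1 member called. It had 567 reads in R2a and 427 reads in R2b, although R2b was the deeper library. This was 46.7 CPM (42.9 to 50.7) in R2a and 18.3 CPM (16.6 to 20.2) in R2b, a log2 ratio of 1.32 with a counting interval of 2.24 to 2.89 for the fold. The intervals of the 2 libraries did not overlap. mt-Nd6 made up 0.199% of the reads on the 13 mRNAs in R2a and 0.0722% in R2b. Relative to the summed heavy-strand mRNAs it was 2.76-fold higher in R2a.

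The distance of mt-Nd6 to its neighbours differed between the libraries accordingly. Per kilobase, mt-Nd5, which ends within it on the other strand, was 12.9 times as high as mt-Nd6 in R2a and 31.1 times in R2b. mt-Cytb was 31.3 times as high in R2a and 88.0 times in R2b. mt-Nd6 shares 14 bases with mt-Nd5, and no window of 75 bases of mt-Nd6 has an exact copy in a nuclear transcript. The sources used here do not give the strand setting of the counter, so reads of either strand on the mt-Nd6 locus cannot be told apart. As a measurement that bears on it, 41 of 47 protein-coding genes with at least 95% of their exon bases under exons of the opposite strand were at 0 reads in both libraries (87.2%), beside 26.9% of all protein-coding genes. Pdcd2, fully covered, was among those at 0, whereas Pfn3, also fully covered, had 63 reads in R2a against 78 in R2b, and Slirp, 97.8% covered, had 71 and 138. The strand setting is not settled by these counts.

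The light-strand genes as a group rested on 2 members. The 9 genes summed to 1133 reads in R2a and 1388 in R2b, or 93.3 and 59.6 CPM, a fold of 1.56 (1.45 to 1.69) and a log2 ratio of 0.64. They held 0.0513% of the mitochondrial reads in R2a and 0.0307% in R2b, so the 28 heavy-strand genes held nearly all of them in both libraries. mt-Nd6 and mt-Tp gave all of these reads, and the other 7 light-strand tRNAs had 0. The fold of the sum therefore lies between that of mt-Nd6 and that of mt-Tp, and it describes no strand as a whole.

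**Figure D2:**
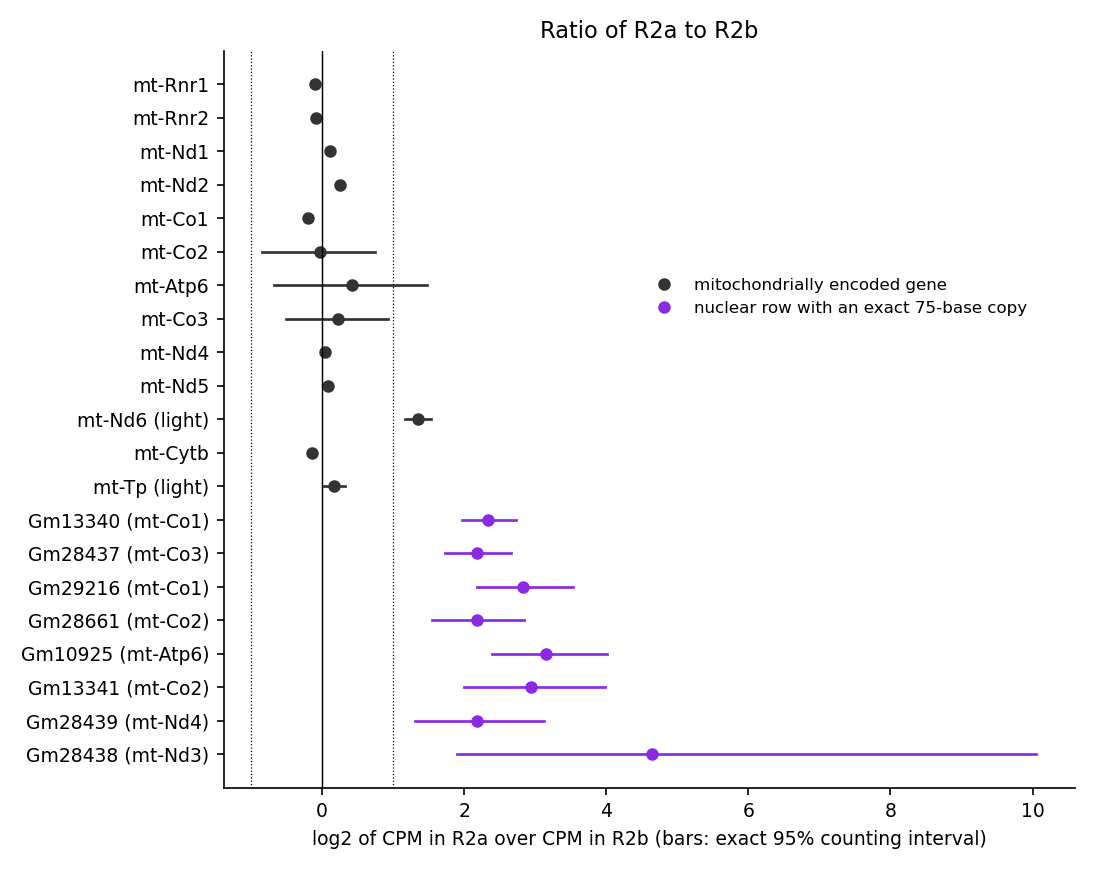
Log2 of the CPM in R2a over the CPM in R2b, without an added value, for the mitochondrially encoded genes over 1 CPM (dark) and for 8 nuclear rows that hold an exact copy of at least 75 bases, each with the member it copies (purple). Bars are exact 95% intervals for counting error, and dotted lines mark 2-fold. mt-Nd6 and all 8 nuclear rows lie to the right of the 2-fold line, and the points of the other members lie between the lines.

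mt-Tp, the proline tRNA read in the light-strand direction next to the control region, was the only tRNA with reads. It had 566 reads in R2a and 961 in R2b, or 46.6 and 41.3 CPM, a fold of 1.13 (1.02 to 1.25). The other 21 tRNAs had 0 reads in both libraries, where a count of 0 allows up to 3 counts, which is 0.254 CPM in R2a and 0.125 CPM in R2b on unscaled totals. All 22 tRNAs are 59 to 75 bases long, no longer than a read. An inner tRNA lies at most 32 bases from its nearest neighbour on each side, whereas mt-Tp borders on the control region, which holds no annotated gene. mt-Tf, at 0 reads, borders on the other end of that region in the circle. It starts at base 1 of the reference sequence, however, so no base of that sequence lies before it, and mt-Rnr1 follows after 1 base. On their own strand alone, 7 tRNAs at 0 reads, 5 of them in the light-strand direction, have at least 75 bases without a gene beside them. How the counter treated reads that cover a tRNA and its neighbour was not tested, and the sources used here do not name its count mode.

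The sequences of mt-Tp and of 2 tRNAs at 0 reads are shown because they are of like length. mt-Tp at chrM:15356-15422 and mt-Ty, the tyrosine tRNA at chrM:5260-5326, are both on the minus strand and both 67 bases long, and mt-Tf, the phenylalanine tRNA at chrM:1-68, is the first gene of the plus strand. Capitals mark the anticodon.
mt-Tp: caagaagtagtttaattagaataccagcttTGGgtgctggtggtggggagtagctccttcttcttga
mt-Ty: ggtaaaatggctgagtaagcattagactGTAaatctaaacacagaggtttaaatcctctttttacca
mt-Tf: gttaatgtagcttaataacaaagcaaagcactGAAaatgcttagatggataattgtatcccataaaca

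A second set of mRNAs stood near 0 in both libraries. mt-Co2 had 22 reads in R2a against 43 in R2b, and mt-Co3, another cytochrome c oxidase subunit, had 28 and 46. mt-Atp6, the membrane channel subunit of ATP synthase, had 14 and 20 reads. mt-Nd3 had 2 reads in each library and mt-Nd4l, a small complex I subunit, had 0 in both. These 5 genes summed to 66 reads in R2a and 111 in R2b, whereas mt-Co1, of the same complex and strand as mt-Co2, had 170195 and 374687. Per kilobase, mt-Co1 was 3425 times as high as mt-Co2 in R2a and 3858 times in R2b. In R2a over R2b, the folds of mt-Co2, mt-Co3 and mt-Atp6 were 0.981, 1.17 and 1.34, and all 3 intervals included 1.

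The same 5 genes were the ones copied almost whole in nuclear transcripts. The copied share of a gene is the percentage of its 75-base windows that occur base for base in an annotated nuclear transcript. It was 99.9% for mt-Co3, 99.5% for mt-Co2 and for mt-Atp6, 98.7% for mt-Nd4l and 97.8% for mt-Nd3. Of the other mRNAs, mt-Nd4 had 61.5% of its windows copied, mt-Co1 39.8%, mt-Nd2 5.71% and mt-Nd5 1.66%. The copied share was 0 for mt-Nd1, mt-Nd6, mt-Cytb, mt-Atp8 and both rRNAs. All 5 mRNAs with at least 90% of windows copied thus had at most 46 reads, and the 4 mRNAs copied in part had at least 10466 reads in R2a and 19461 in R2b. The counter's row for reads with more than 1 alignment held 8.50% of the total over all rows in R2a against 8.33% in R2b. The genes these reads came from are not recorded, so the true levels of the 5 genes are not known from these counts.

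**Figure D3:**
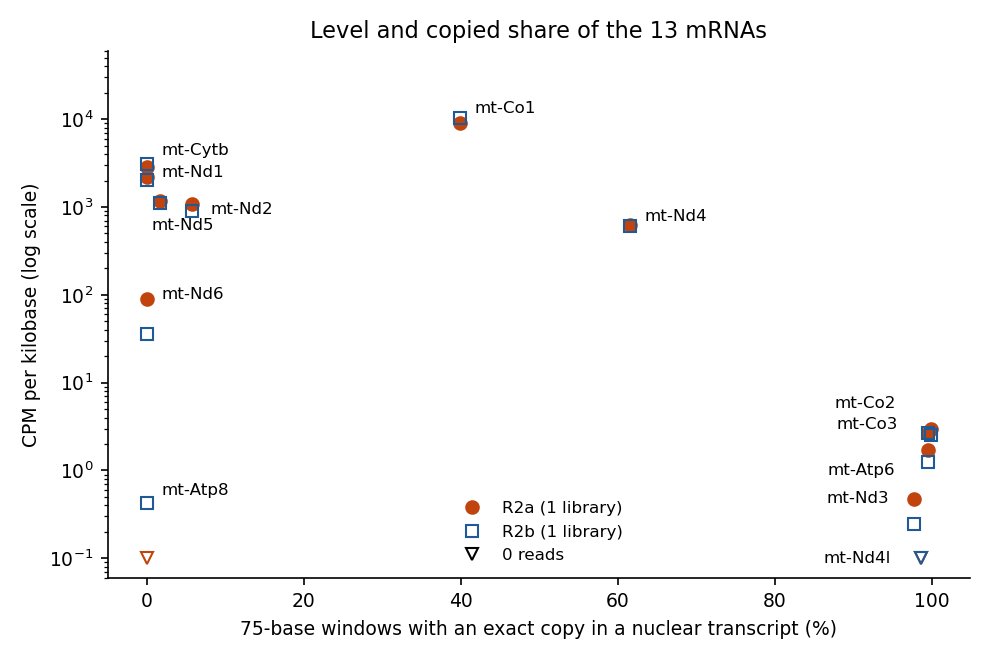
Level of the 13 mRNAs in CPM per kilobase (log scale) against the percentage of their 75-base windows with an exact copy in a nuclear transcript, with 1 point for each library and triangles for 0 reads. The 5 mRNAs at the right, with at least 97.8% of windows copied, lie below 3 CPM per kilobase, and mt-Atp8 lies there too with no copied window.

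mt-Atp8, a small ATP synthase subunit, was low without an exact 75-base copy in an annotated transcript. Gm28925 on chromosome 1, whose best alignment is to mt-Atp8, is 81.4% identical to it over 167 aligned bases and had 0 reads in both libraries. Exact copies exist for 8% of the 30-base windows of mt-Atp8, and Gm28925 holds 0 of them. mt-Atp8 had 0 reads in R2a against 2 in R2b, and 43 of its 204 bases are shared with mt-Atp6. Gm10925, which copies mt-Atp6 at 100% identity from its first base, had 79 reads in R2a and 17 in R2b. The other 161 bases of mt-Atp8 lie between mt-Co2 and mt-Atp6. The pseudogenes Gm28661 and Gm10925, which copy those neighbours on chromosome 1, are separated by 233 bases in which no row is annotated. The aligned parts of mt-Co2 and mt-Atp6 are also 233 bases apart. The sequence between the pseudogenes was not used here, so whether mt-Atp8 has a copy there was not tested.

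For the genes copied in part, the order of levels depends on the length used. Only 576 of the 1378 bases of mt-Nd4 lie in windows without an exact copy. Per kilobase of these bases its level was 1497 CPM in R2a and 1452 CPM in R2b, which moved it from position 6 to position 4 among the mRNAs, above mt-Nd5 and mt-Nd2. On the same scale mt-Co1 was at 12299 and 14123 CPM per kilobase and stayed the highest. Whether reads within copied windows were all set aside was not tested, and rows that are 100% identical to a member still held reads. The ratios between libraries do not depend on the length.

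The copies formed a block on chromosome 1. The 7 rows Gm29216, Gm28661, Gm10925, Gm28437, Gm28438, Gm10222 and Gm28439 lie at chr1:24611535-24616197 on the minus strand and correspond, in the same order, to the mitochondrial genome from the last part of mt-Co1 to the first part of mt-Nd4, chrM:6390-11042. Their identity to the members is 99.7% to 100%, and 5 of the 6 spacings between neighbouring rows are the same on both genomes, the other being 73 bases on the mitochondrial genome and 74 on chromosome 1. A second block, at chr2:22587291-22590533 on the minus strand, holds Gm13341, Gm13340 and Gm13339 with identities of 95.9%, 97.6% and 96.7% to mt-Co2, mt-Co1 and mt-Nd2.

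These nuclear rows were higher in R2a, while none of the genes they copy was called, 5 of them being near 0 reads. Of 12 rows with an exact copy of at least 75 bases, 11 had reads and all 11 had a higher CPM in R2a. Among the 11, Gm13339 had only 6 and 2 reads, Gm10222 5 and 0, and Gm4076 2 and 0, and the counting interval of Gm4076 includes 1. The share of all rows with a higher CPM in R2a was not counted. Of the 11 rows, 8 exceeded 1 CPM in the higher library and all 8 were called higher. This stood beside 6.40% of the 594 pseudogene rows tested, a share that includes the same 8 rows. None of the 8 was called lower, beside 1.68% of the pseudogene rows. Gm10925, Gm13341, Gm28439 and Gm28438 passed the minimum of 1 CPM only through R2a, where they are higher. The count of 8 is thus not independent of that direction. Summed, the 12 rows had 707 reads in R2a against 242 in R2b, a fold of 5.60 (4.83 to 6.51), while the 12 heavy-strand mRNAs had a fold of 0.924. The rows were chosen by sequence and not by their counts, but rows of 1 block share their locus and are not independent of each other.

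On chromosome 1, Gm28437, the copy of mt-Co3, had 135 reads in R2a against 57 in R2b, a fold of 4.54 (3.31 to 6.30). Gm29216, which copies part of mt-Co1, had 93 and 25 reads, a fold of 7.13 (4.55 to 11.6). Gm10925, the copy of mt-Atp6, had 79 and 17 reads, a fold of 8.91 (5.23 to 16.1). Gm28661, the copy of mt-Co2, had 71 and 30 reads, a fold of 4.54 (2.92 to 7.20), and Gm28439, which copies part of mt-Nd4, had 38 and 16, a fold of 4.55 (2.48 to 8.75). These 5 rows had more reads in R2a in absolute number too, although R2b was the deeper library. Gm28438, the copy of mt-Nd3, had 13 reads and 1 read, and the lower bound of its fold was 3.74. Gm10222, the copy of mt-Nd4l, had 5 reads and 0, which is at least 3.20-fold higher when R2b is set to the floor of 3 counts, while the lower bound of its counting interval is 1.76, and it stayed under 1 CPM.

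The chromosome 2 block gave the same direction at a lower identity. Gm13340, the copy of mt-Co1, had 217 reads in R2a against 82 in R2b, a fold of 5.07 (3.92 to 6.62). Gm13341, the copy of mt-Co2, had 48 and 12 reads, a fold of 7.67 (4.01 to 15.9). Gm13339, which copies part of mt-Nd2, had 6 and 2 reads and stayed under 1 CPM. Summed by block, the fold was 5.70 (4.71 to 6.92) on chromosome 1 and 5.41 (4.27 to 6.90) on chromosome 2, so the intervals of the blocks overlap.

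For the 5 nearly whole copies, the share of reads that fell on the nuclear row differed between the libraries. Of the reads on a member and its chromosome 1 copy, 303 of 369 were on the copy in R2a, or 82.1% (77.8 to 85.9), and 105 of 216 in R2b, or 48.6% (41.8 to 55.5). For mt-Co2 the share was 76.3% in R2a and 41.1% in R2b. For mt-Co3 it was 82.8% and 55.3%, and for mt-Atp6 it was 84.9% and 45.9%. The direction was the same in the 4 pairs with reads in both libraries, and for these 3 the intervals of the libraries did not overlap. Because the sequences are nearly identical, the gene of origin of these few reads is uncertain in each pair. Beside this, reads outside annotated genes made up 41.2% of the total over all rows in R2a against 38.9% in R2b. The median log2 ratio of all pseudogene rows tested was 0.10, beside -0.01 for all genes. The part of either in the difference was not tested.

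**Figure D4:**
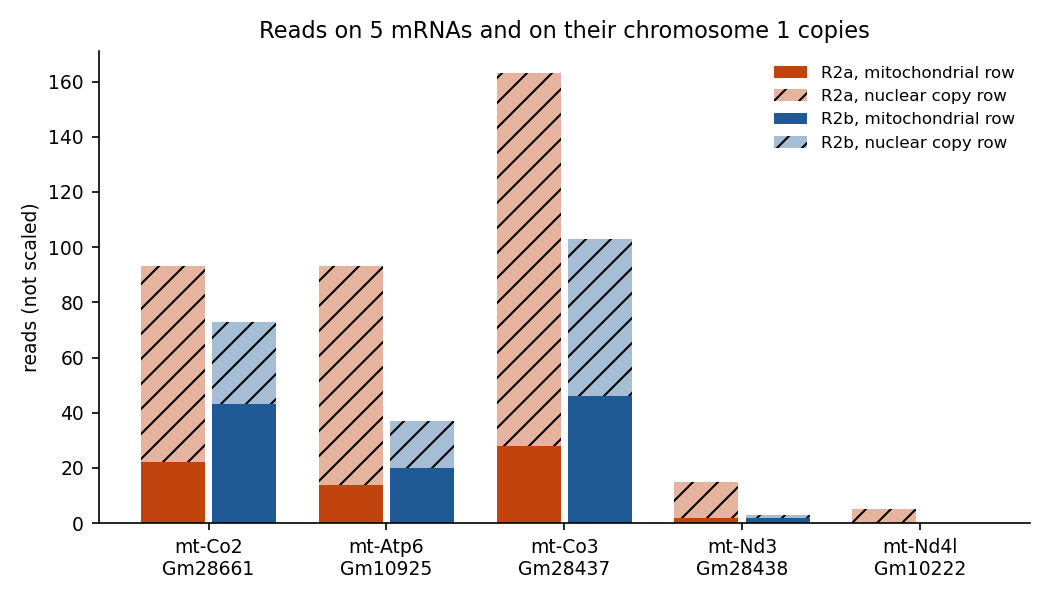
Reads, not scaled for depth, on 5 mitochondrial mRNAs (solid) and on their chromosome 1 copies (hatched, stacked above) in the 2 libraries. The nuclear rows hold 303 of 369 reads in R2a and 105 of 216 in R2b.

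Nuclear genes that build the same machines were set beside the mitochondrial ones. The 75 nuclear genes of complexes I to V were all tested, 0 were called in either direction, beside 3.77% of all genes, and their median log2 ratio was -0.01 with a range of -0.72 to 0.53. Their summed level was 3007 CPM in R2a and 3062 CPM in R2b. By complex, 0 of 36 nuclear genes of complex I, 0 of 4 of complex II, which has no mitochondrial gene, 0 of 9 of complex III, 0 of 11 of complex IV and 0 of 15 of complex V passed the rule. The medians were -0.01, -0.04, 0.05, 0.11 and -0.03. Within complex IV, 8 of 11 nuclear genes lay above 0 while mt-Co1 lay at -0.20, all of them within the 2-fold rule. The median log2 ratio of all genes tested was -0.01.

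At 5 CPM or more in either library, the nuclear complex I genes farthest from 0 were Ndufb2, with 35 reads in R2a and 118 in R2b and a log2 ratio of -0.72, and Ndufs4, an accessory subunit, with 219 and 294 reads and a log2 ratio of 0.50. mt-Nd6, at 1.32, lay outside the range of all 36 genes. By the same rule, Sdhc, a membrane anchor of complex II, had 513 and 1235 reads and a log2 ratio of -0.33, and Sdha, its flavoprotein subunit, was at -0.08. In complex III, Uqcrq had 199 and 501 reads and a log2 ratio of -0.38, and Uqcrb was at 0.26. In complex IV, Cox5a had 157 and 243 reads and a log2 ratio of 0.30, and Cox6c was at 0.19. In complex V, Atp5g1, which encodes a subunit of the rotor ring, had 302 and 708 reads and a log2 ratio of -0.285, and Atp5d was at -0.18. None of these passed the 2-fold rule.

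**Figure D5:**
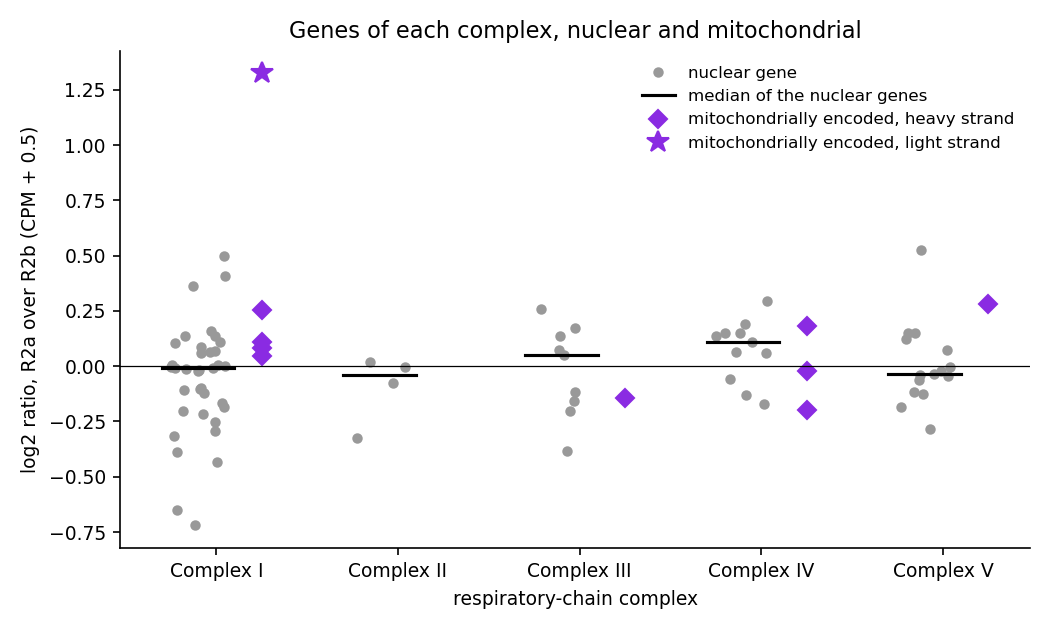
Log2 ratio of R2a over R2b (CPM plus 0.5) of every tested nuclear gene (grey, bar for the median) and every mitochondrially encoded gene over 1 CPM (purple) of complexes I to V, with a star for the light-strand gene. mt-Nd6 lies at 1.32, above all nuclear complex I genes, and the heavy-strand genes lie between -0.20 and 0.28.

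Genes that maintain, express and translate the mitochondrial genome gave 1 call. Of 20 genes for mitochondrial DNA replication and transcription, 18 were tested, 0 were called and the median log2 ratio was -0.01. The largest values were 0.90 for Tefm, the elongation factor of mitochondrial transcription, with 91 reads in R2a and 88 in R2b, and -0.67 for Polg2, the accessory subunit of the mitochondrial DNA polymerase, with 210 and 647 reads. The polymerase gene Polrmt had 20.4 CPM in R2a and 18.6 CPM in R2b, and Tfam, which packs mitochondrial DNA and starts transcription, had 19.8 and 19.3 CPM. Among 35 genes for RNA processing, modification and decay, 0 were called and the median was 0.06. Pnpt1, an RNA-degrading exonuclease, had 314 and 395 reads and a log2 ratio of 0.59, and Pus1, a pseudouridine synthase, had 73 and 209 reads and a log2 ratio of -0.54. Lrpprc, which stabilises mitochondrial mRNAs, had 59.2 and 60.3 CPM, and Elac2, which cuts the 3′ end of tRNAs, had 14.7 and 17.4 CPM. The value of Slirp, the partner of Lrpprc, is uncertain because its exons lie under exons of the opposite strand.

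Of 78 genes of the mitochondrial ribosome 77 were tested, with 0 called and a median of 0.00, and Mrpl53 had 0 reads in both libraries. Among those at 5 CPM or more, the largest log2 ratios in size were 0.69 for Mrpl27 and 0.66 for Mrpl21, on 100 and 101 reads in R2a. Of 19 mitochondrial aminoacyl-tRNA synthetases, 1 was called higher, and the median was 0.06. It was Lars2, which charges the mitochondrial leucine tRNAs, with 1773 reads in R2a and 589 in R2b, and it contains no 30-base stretch of a mitochondrial gene. A list of 21 other mitochondrial proteins had 0 called and a median of -0.01, with Hspe1, a matrix chaperonin, at 0.41 and Timm23, an import channel, at -0.29. Over all 10 lists, 1 of 245 tested genes was called higher and 0 lower, beside 1.93% and 1.84% of all genes.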

How the data were processed

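RNA of 2 pooled samples was sequenced as paired ends of 75 bases after ribosomal RNA reduction, per the labels' protocols. The deposited table gives raw read counts for each gene as whole numbers. Per the submitters' processing notes, the authors used bcl2fastq 2.18.0.12, STAR 2.5.3 with build GRCm38, HTSeq 0.9.1 and DESeq2. The sources used here give no annotation release, strand setting or count mode. The 5 summary rows of the counter stayed out of library sizes. Of the total over all rows, these 5 included, 47.9% in R2a and 50.3% in R2b lay on rows naming a gene. The summary row for unaligned reads was at 0 in both libraries, so this total holds no unaligned reads.

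Symbols came from GENCODE M21, which matched 48349 of 48795 identifiers. Counts were scaled with TMM (edgeR 4.0.16, R 4.3.3) to CPM, and log2 ratios used an added 0.5 CPM. Folds have exact Clopper-Pearson 95% intervals on the split of a gene's reads (scipy 1.17.1), which cover counting error only. A gene was tested at 1 CPM or more in the higher library and called at 2-fold with an interval that leaves out 1. A call compares these 2 libraries and not the populations. The calling and the window search were tested on simulated data.

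Copies of the mitochondrial genes were searched in annotated nuclear transcripts of GENCODE M21, by exact windows and by blastn 2.17.0, because no genome sequence was used; the plan had named the nuclear genome. The alternatives were other scalings (library totals, upper quartile, DESeq2 1.42.0 size factors, and TMM without mitochondrial and rRNA-like rows), added values, CPM minimums, fold rules, thinned R2b reads, gene lengths and windows.

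All 37 members were named where they had reads, with the 10 copy rows with the most reads among those holding an exact 75-base copy. From each nuclear list, called genes were named, otherwise the members with the 2 largest log2 ratios in size at 5 CPM or more. Polrmt, Tfam, Lrpprc, Elac2, Slirp, Mrpl53, Pdcd2, Pfn3, Gm28925, Gm4076, Gm44332, Mir6481 and Naaa were named besides, after their values were seen. The members and lists were chosen with earlier results of these data known.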

Additional observations from a re-analysis of the deposited data

Results flagged for a closer look

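Reads outside the gene counts were present in the counter's summary rows, which enter no comparison of the report. Reads on no annotated gene made up 41.2% of all reads in R2a and 38.9% in R2b. Reads that overlapped more than 1 gene made up 2.42% in R2a and 2.51% in R2b, and mitochondrial genes that share bases with a neighbour can lose reads to this class. Reads with more than 1 alignment made up 8.50% in R2a and 8.33% in R2b, and reads of the nearly whole copied mRNAs can fall in it. No control library exists to set these shares against, and their part in the levels of the mitochondrial genes was not tested.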

How the results depend on the processing

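The log2 ratio of the summed heavy-strand mRNAs was -0.11 with TMM, -0.10 with DESeq2 size factors and -0.036 with library totals. The 1 member called higher, mt-Nd6, was not called under the 4-fold rule, which left 0, and its log2 ratio ranged from 1.26 to 1.46 over the 8 alternatives run for it. The nuclear copy rows called higher fell from 8 to 5 with a CPM minimum of 5 and to 4 under the 4-fold rule. The nuclear list genes called rose from 1 to 11 under the 1.5-fold rule. The other 72 alternatives for the counts of calls and the summed ratios kept the direction of the sums within their counting intervals and the counts within 1.5 times, and 0 called values changed sign. Library totals in place of TMM shift the ratio of CPM by 0.08 on the log2 scale, and less where the added 0.5 CPM weighs on a low gene. With this shift mt-Co2 moved from -0.02 to 0.04, and over the scalings 5 of the 10 nuclear list medians changed sign. The ratios of mt-Rnr1 and mt-Rnr2 changed sign relative to the heavy-strand mRNAs, to 0.01 and 0.03. The search in transcripts and the windows of 50 and 30 bases were chosen after seeing the data, and the same 5 mRNAs held at least 90% copied windows with each window length. Over all genes, those called higher numbered 301, and 869 under the 1.5-fold rule, 41 under the 4-fold rule, 92 with a CPM minimum of 5, 493 with 0.1 CPM added and 82 with 2 CPM added. Those called lower numbered 287, and 903, 16, 97, 462 and 78 under the same alternatives.

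With 1 library for each population, there was no replicate to leave out and no spread between animals to set a difference against. The 5 nearly whole copied mRNAs and their chromosome 1 copies rest on at most 135 reads each, so their counting intervals are wide, and why these mRNAs and 21 tRNAs have few or 0 reads was not tested. No paired analysis was possible because each population had 1 library and no comparison came from a test.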

Other observations

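Copies of lower identity than those described above gave few reads where they make up most of their row. Gm20594, chosen after its values were seen, is annotated as protein-coding on chromosome 6 and is 88.5% identical to mt-Rnr2 along 435 aligned bases. It had 22 reads in R2a and 0 in R2b, at least 14.1-fold higher against a floor of 3 counts with a lower counting bound of 10.5, while mt-Rnr2 itself had a fold of 0.943. Gm11512, also chosen after its values were seen, is 90.7% identical to mt-Co1 and had 7 reads in R2a and 0 in R2b. This is at least 4.47-fold higher, with a lower counting bound of 2.76. Other such copies did not share this gap. Gm44332, 72.0% identical to mt-Co3, had 11 and 15 reads and a fold of 1.41 (0.584 to 3.28). Mir6481, 82.8% identical to mt-Tf over 64 aligned bases, had 4 and 14 reads and a fold of 0.548 (0.131 to 1.74). Both intervals include 1. Cep295, a centrosomal gene with a 662-base stretch that is 77.9% identical to mt-Rnr2, had 311 and 651 reads and a fold of 0.916 (0.798 to 1.05). Of 20 rows that hold an exact copy of at least 30 bases, 10 were tested and 9 were called higher, beside 1.93% of all genes. The 9 are the 8 rows described above and Gm20594, which also passed the minimum of 1 CPM only through R2a. The summed fold of the 20 rows was 2.26. Cep295, with 3.78% of its length aligned, gave 311 of their 1051 reads in R2a and 651 of 893 in R2b. The summed fold of all 45 rows with any alignment to a mitochondrial gene was 1.09. Naaa, with 2.45% of its length aligned, gave 1339 of their 2507 reads in R2a and 3262 of 4400 in R2b. These sums, beside 5.60 for the rows with an exact copy of at least 75 bases, thus do not show how the fold varies with identity.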
